A study of Mus musculus with 6 samples.

Results

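The miR-28, miR-151 and miR-708 miRNAs were described in epididymal white adipose tissue (WAT) of male C57BL6/J mice. The members were the rows named for miR-28, miR-151a, miR-151b and miR-708 in the deposited small RNA table, with every arm listed. They made up 7 of 1983 rows. Of these, 5 were above the lowest value the table records in all 6 libraries and are described in full, and 2 were at that value in all 6. Small RNA libraries came from 3 wild type (Wt) mice and 3 angiotensinogen transgenic (Agt Tg) mice, in which angiotensinogen, the precursor of angiotensin II, was overexpressed in adipose tissue from the aP2 promoter. The aP2 promoter is active in adipocytes and, as background, also in macrophages. All mice were male, of 1 strain and untreated, the diet is labelled as chow while the methods of the study name a low-fat diet, and the age is not given in the labels. The sample titles number 3 mice per genotype, and if libraries did not come from separate mice, the p-values measure only the spread between libraries. The depth, inferred from the deposited values, was 7480766, 7838874 and 9821467 reads for Wt mice, taken in the order of their replicate numbers. It was 10367417, 6387766 and 10562634 reads for Agt Tg mice.

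A miRNA guides an Argonaute protein to messenger RNAs, chiefly through its seed, the short stretch near its 5′ end that pairs with the target. Each hairpin can give a 5p and a 3p strand, which have different seeds and so different targets. The genes of this group lie in introns of larger genes and can be made from the host transcript. Transcription of miR-708 with its host Tenm4 is known to be raised by CHOP, a transcription factor of the endoplasmic reticulum (ER) stress response, and miR-151 is known for its link to the host kinase gene Ptk2, which encodes focal adhesion kinase. ER stress is a known feature of adipose tissue in obesity.

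The mature mouse sequences show what the members share, and are given from RefSeq (GRCm38.p6), with the seed, bases 2 to 8, in capitals. Of 5 mouse genes looked for, 3 had mature entries; Mir151 and Mir28c are named only.
miR-28a-5p: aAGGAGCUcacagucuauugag
miR-708-5p: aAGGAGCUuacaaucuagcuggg
miR-28b: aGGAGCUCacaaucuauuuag
miR-28a-3p: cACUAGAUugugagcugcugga
miR-708-3p: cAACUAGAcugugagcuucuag

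The 5p arms of miR-28a and miR-708 had the same seed, AGGAGCU, and no other of 1679 mature mouse names searched had it. That search did not cover every mouse chromosome. Compared base by base from the 5′ end of miR-28a-5p, 16 of 22 bases were identical, the first 8 among them, and the differences were C9U, G13A, U18G, U19C, G20U and A21G, with the base of miR-28a-5p first. The sequence of miR-28b matched miR-28a-5p at 19 of 21 bases when the first base of miR-28a-5p was passed over, so that its seed, GGAGCUC, was the same stretch moved by 1 base. The 3p arms also resembled each other after such a shift. When the first base of miR-708-3p was passed over, 17 of 21 bases matched miR-28a-3p, with the differences A2C, C9U, U18G and A21G counted on miR-708-3p. Their seeds, AACUAGA and ACUAGAU, differed from each other and from that of the 5p arms. The group is therefore not 1 seed family in every arm: a shared seed was found for miR-28a-5p and miR-708-5p, and the seed of miR-151 was not checked here.

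In the GENCODE M21 annotation of GRCm38, Mir28a lies at chr16:24827855-24827940 on the plus strand, within Lpp (chr16:24393507-24992578), which encodes a focal adhesion protein. Mir708 lies at chr7:96249424-96249532 on the plus strand within Tenm4 (chr7:96171246-96911093), a teneurin gene. Mir151 lies at chr15:73254815-73254882 on the minus strand within Ptk2 (chr15:73205102-73423280). Each lies on the strand of its host and overlapped 0 of the host's annotated exons, which places it in an intron. The levels of Lpp, Tenm4 and Ptk2 were not analysed here.

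Values are given in RPM, reads per 1000000 of the library total, obtained from the deposited log2 values. The table records nothing under 1 RPM, the floor, which stood for 6.39 to 10.6 reads. Intervals are 95% Poisson or Wilson intervals and cover counting error only, since reads were amplified and are not independent molecules.

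miR-28-5p was at 139.2, 159.7 and 129.6 RPM in Wt replicates 1, 2 and 3 and at 123.3, 112.4 and 148.7 in Agt Tg replicates 1, 2 and 3. It was the steadiest of the miR-28 and miR-708 rows, with a 1.42-fold gap between the highest library, Wt replicate 2, and the lowest, Agt Tg replicate 2. The genotypes overlapped, because Agt Tg replicate 3 was above Wt replicates 1 and 3. Between 718 and 1571 reads stood behind each value.

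miR-708-5p, the arm with the same seed, was at 197.7, 130.5 and 153.3 RPM in the Wt libraries and at 109.2, 189.7 and 169.2 in the Agt Tg libraries. The highest value was in Wt replicate 1 and the lowest in Agt Tg replicate 1, a 1.81-fold gap, and the genotypes overlapped over most of this range. Group means were 160.5 ± 34.2 RPM for Wt and 156.0 ± 41.9 RPM for Agt Tg mice (SD, n = 3 each). The ranks of the miR-28-5p and miR-708-5p rows were 101 and 94 of 329 by mean log2 level. The rows next above and below miR-28-5p in level were miR-30c-2-3p and miR-15b-5p, at mean log2 levels of 10.41 and 10.31 beside 10.39. For miR-708-5p they were miR-4454 and miR-301a-3p, at 10.60 and 10.57 beside 10.60.

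Which of the same-seed arms was the more abundant depended on the library. miR-708-5p was the higher in Wt replicates 1 and 3 and in Agt Tg replicates 2 and 3, and miR-28-5p in Wt replicate 2 and Agt Tg replicate 1. The share of miR-28-5p in their summed level ran from 37.2% in Agt Tg replicate 2 to 55.0% in Wt replicate 2. The sum, which is the level of this seed on these 2 rows, had a mean of 303.3 ± 29.3 RPM for Wt and 284.2 ± 45.5 RPM for Agt Tg mice (SD, n = 3 each). It ran from 283.0 to 336.9 in Wt and from 232.5 to 317.9 in Agt Tg libraries, and these ranges overlapped.

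miR-708-3p was at 335.1, 173.2 and 261.4 RPM in the Wt libraries and at 194.4, 249.9 and 266.8 in the Agt Tg libraries. Both the highest and the lowest value belonged to Wt mice, replicates 1 and 2, so that the Agt Tg libraries lay inside the Wt range. This 1.93-fold gap was the widest of the 5 rows. At rank 84 it lay next to miR-320a and miR-149-5p, with mean log2 levels of 11.25 and 11.21 beside 11.24.

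miR-151a-5p was the abundant member, at 2764.7, 1795.9 and 2720.2 RPM in the Wt libraries and at 2546.5, 2593.4 and 2618.7 in the Agt Tg libraries. Wt replicate 2 was low and the other 5 libraries lay within 1.09-fold of each other, with the 3 Agt Tg values between Wt replicate 2 and the other Wt libraries. It ranked 30 of 329. The miR-151b row, at rank 29, followed it closely, at 2805.2, 1808.3 and 2768.2 RPM in Wt and 2596.0, 2634.1 and 2666.1 in Agt Tg libraries. let-7i-5p stood next above this pair, at a mean log2 level of 14.71 beside 14.62, and let-7b-5p next below, at 14.55 beside 14.60.

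**Figure D1:**
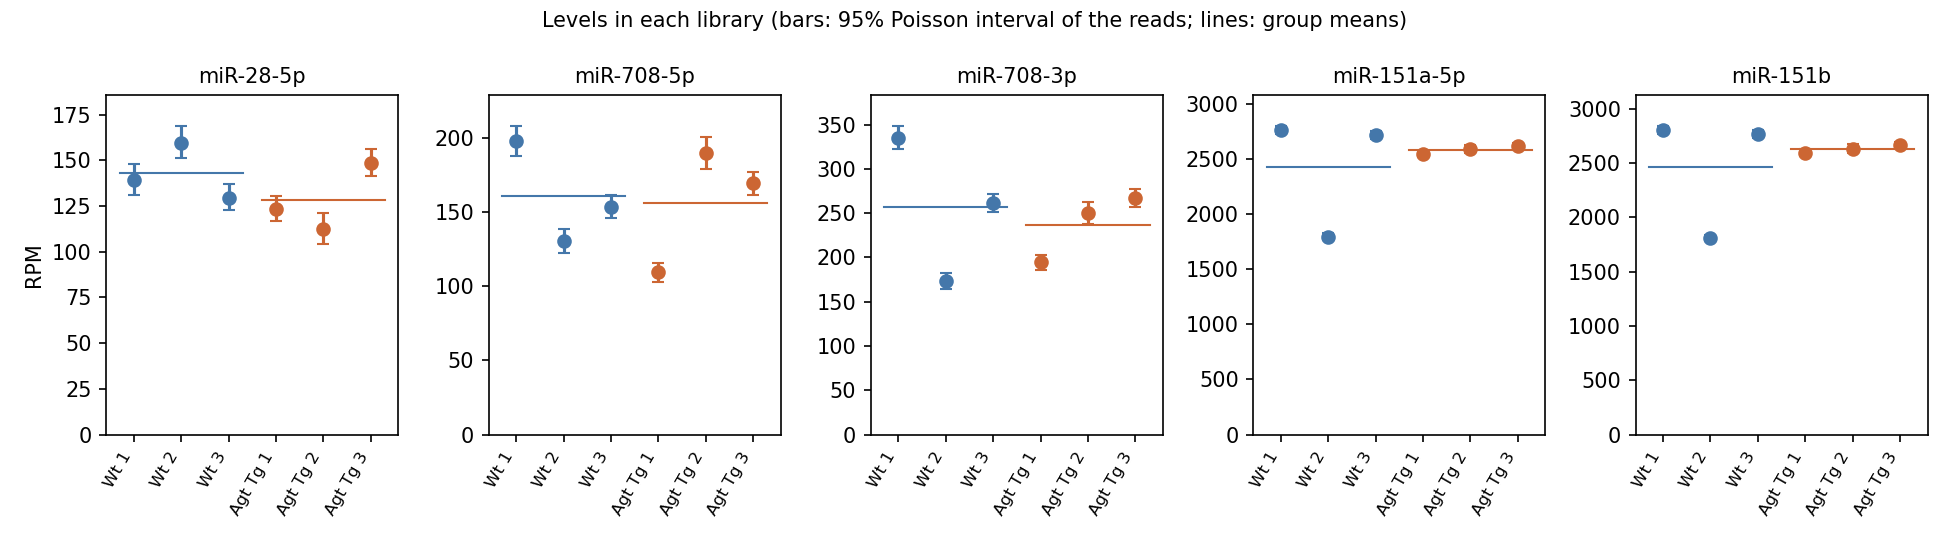
RPM (reads per 1000000 of the library total) of the 5 described rows in each library, with Wt in blue and Agt Tg in orange. Points are libraries, bars are 95% Poisson intervals of the reads and lines are group means. The genotypes overlap in every panel, and Wt replicate 2 is the lowest library for miR-708-3p, miR-151a-5p and miR-151b.

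The miR-151b row held slightly more reads than miR-151a-5p in 6 of 6 libraries, by 303, 97 and 472 reads in the Wt libraries and by 513, 260 and 501 in the Agt Tg libraries. Set against the miR-151b reads, these came to 0.684% for Wt replicate 2, while the remaining 5 libraries ran from 1.44% to 1.91%. If the rows counted separate reads, the counting error (SD) of the difference would be 168 reads for Wt replicate 2, so that its 97 reads would lie within that error, and at most 236 reads for any library. Over the libraries the log2 levels of the rows had a correlation of 0.9999. Values this close leave it unclear how far the rows count the same reads, so miR-151b was not taken as a separate measurement of the group.

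The 3p arms of miR-28 and miR-151a were at the floor in 6 of 6 libraries. The reads on miR-28-3p were at least 112.4-fold to 159.7-fold under those on miR-28-5p, depending on the library, and those on miR-151a-3p at least 1795.9-fold to 2764.7-fold under miR-151a-5p. An arm at the floor was common among names as abundant as these. Of 73 names with both arms listed and a stronger arm at least as high as miR-28-5p, 23 (31.5%) had the other arm at the floor in all libraries, as did 5 of 21 (23.8%) at least as high as miR-151a-5p. All rows carry human names, and how reads of a mouse arm that differs from its human form were counted is not stated in the methods used here. The floor therefore limits the reads assigned to these rows, not the amount of the mouse arm.

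miR-708 was the exception in this group, with both arms well above the floor and the 3p arm the higher in 6 of 6 libraries, again as reads assigned to human-named rows. The 5p arm took 37.1%, 43.0% and 37.0% of the miR-708 reads in Wt replicates 1, 2 and 3, and 36.0%, 43.2% and 38.8% in Agt Tg replicates 1, 2 and 3. The second replicate of each genotype was the higher one, and the genotypes overlapped. In log2 of 5p over 3p, the mean was -0.65 ± 0.21 for Wt and -0.63 ± 0.22 for Agt Tg mice (SD, n = 3 each), so that the 3p arm was 1.57-fold and 1.55-fold higher. The difference between genotypes was 0.02 (exact permutation test, two-sided, p = 0.9, adjusted p = 0.947 over 60 names with both arms above the floor in all libraries). With 3 mice against 3, this test cannot give a p under 0.1. The groups did not overlap for 6 of these 60 names (10%), and miR-708 was not among them. The 3p arm was the higher in the mean for 27 of the 60 names, and the arms were within 1 log2 unit of each other for 5.

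**Figure D2:**
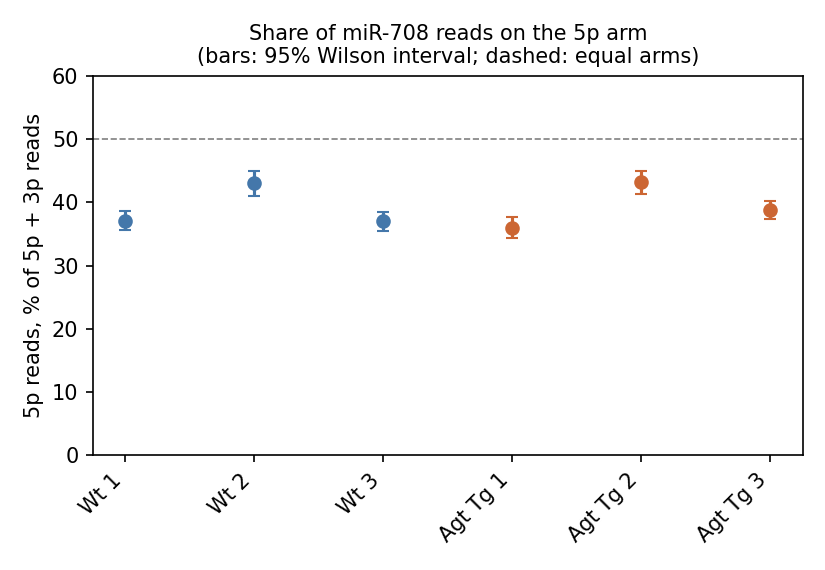
Share of miR-708 reads on the 5p arm in each library, as a percent of the reads on both arms, with 95% Wilson intervals and a dashed line at equal arms. All 6 libraries lie under the line, from 36.0% to 43.2%, and the genotypes overlap.

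Wt replicate 2 stood apart from the other libraries. Its mean correlation with them over the 329 rows was 0.94, and those of the other libraries lay between 0.973 and 0.977. Markers of epididymis and other epithelium were a list of 15 rows, written, like the later lists, with earlier results of these data known. These rows summed to 14464.7 RPM in Wt replicate 2 and to between 317.0 and 440.5 in the other 5, a 38.0-fold gap to their mean. The most abundant was miR-34c-5p, a miRNA of ciliated and germ cells, at 8181.7 RPM in Wt replicate 2 and 124.9 or less in the other Wt libraries. Of 10 tested markers, 9 were higher there than in the mean of the other 5. This count and those for the later lists compare log2 levels. miR-34b-5p, miR-34c-3p and miR-429 were at the floor in all libraries. Leukocyte and erythroid markers summed to 9411.9 RPM in this library and to between 12172.6 and 25161.4 in the others, with miR-155-5p at the floor. Most of that sum was miR-486-5p of red blood cells, at 4793.7 RPM in Wt replicate 2, against a range of 8773.6 to 20182.6 RPM elsewhere. Of 8 tested markers of this list 4 were higher there than in the mean log2 level of the other 5. The leukocyte miRNA miR-142-3p had its highest value there, 79.3 RPM. Adipocyte markers, led by miR-143-3p, summed to 50813.4 in it, inside the range of 46403.7 to 66018.3 of the others, with miR-193b-3p at the floor. miR-143-3p made up 44440.4 RPM of that sum, only 2 of 5 tested adipocyte markers were higher there than in the mean of the other 5, and miR-378a-3p (3865.9 RPM) and miR-365a-3p (296.0 RPM) had their lowest values there. Smooth muscle and stroma markers, led by miR-199a-3p at 3854.6 RPM, summed to 5125.2 RPM in this library, above the range of 3430.7 to 3694.8 elsewhere, with 2 of 3 higher than in the mean of the other 5 and miR-145-5p lower, at 1007.5 RPM. Endothelial markers, led by miR-126-5p, summed to 7218.4 RPM, inside the range of 7078.2 to 11826.6 elsewhere, but 0 of 2 were higher than in the mean of the other 5, and miR-126-3p had its lowest value there, 1839.9 RPM. miR-122-5p of liver was at most 14.5 RPM in any library. Of 5 striated muscle names fixed as a list, 2 matched a row, and these summed to at most 1.7 RPM in any library. The row of miR-133a, another striated muscle miRNA, was not among them and had a mean log2 level of 9.42. Its log2 fold change, Agt Tg over Wt, was -0.51 (SE 0.45), and 0.01 (SE 0.22) without Wt replicate 2.

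In the same library miR-151a-5p was under the mean of the other 5 libraries, with a log2 difference of -0.56, and with -0.57 for miR-708-3p and -0.30 for miR-708-5p, and miR-28-5p was 0.30 above. The median difference over the 329 rows was -0.02, and 13.7% of rows lay lower than miR-151a-5p, 12.8% lower than miR-708-3p and 64.1% lower than miR-28-5p. The part of the marker levels in these values was not tested, and fewer cells of a type and less RNA per cell cannot be told apart in whole tissue.

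**Figure D3:**
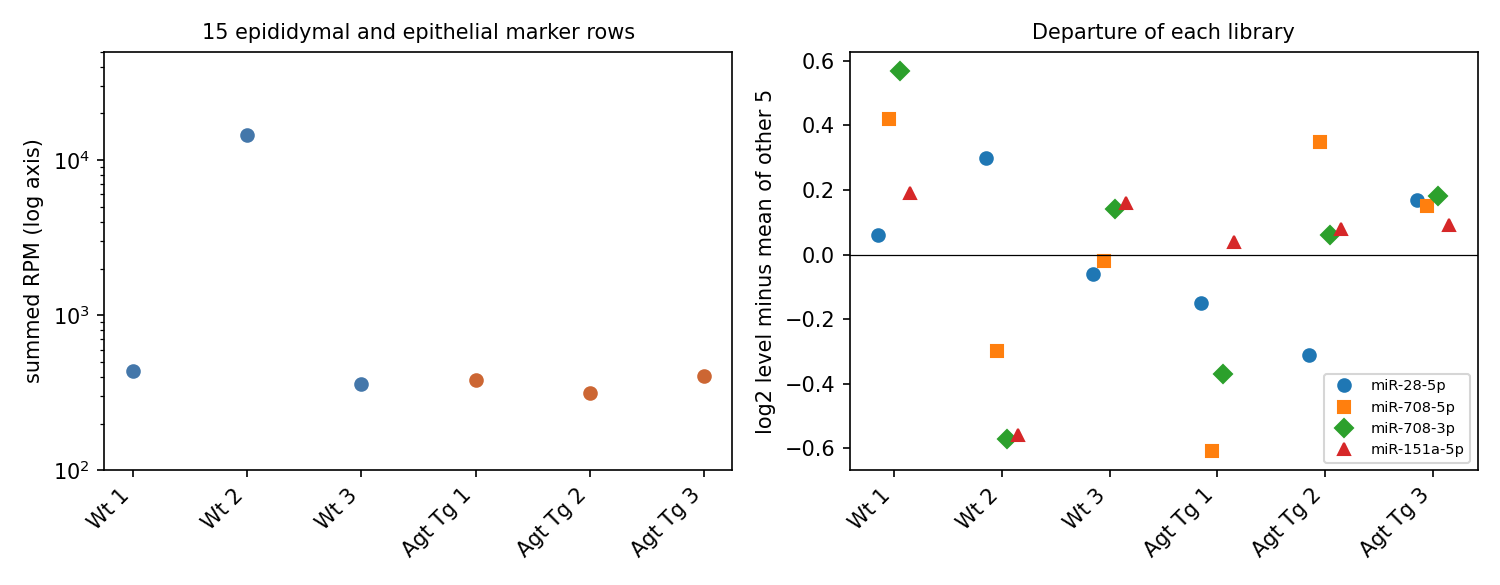
Left, summed RPM (log axis) of 15 epididymal and epithelial marker rows in each library, with Wt in blue and Agt Tg in orange. Right, the log2 level of each member minus the mean of the other 5 libraries. Wt replicate 2 has the highest marker sum, 14464.7, and the lowest miR-151a-5p and miR-708-3p.

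Agt Tg compared to Wt mice showed no call for any member. In limma over 329 rows, 16 (4.86%) passed the threshold, an unadjusted p no higher than 0.05 together with a log2 fold change of 1 or more in either direction, and 0 of the 5 members were among them. At an adjusted p under 0.05, limma gave 0 of 329 rows (0%), with 30 rows at an unadjusted p under 0.05 and 32 with voom. The genotypes did not overlap in 58 rows (17.6%), and 0 of the 5 members were among these.

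The log2 fold change of miR-28-5p was -0.16 (SE 0.22, adjusted p = 0.749). Its 95% interval, -0.67 to 0.35, allows anything from 0.628-fold to 1.27-fold of the Wt level. For miR-708-5p the log2 fold change was -0.06 (SE 0.29, adjusted p = 0.91) and for miR-708-3p -0.08 (SE 0.29, adjusted p = 0.893), with intervals of -0.74 to 0.62 and -0.76 to 0.61. The intervals of these 3 rows do not reach 1 in either direction, the threshold used, but they leave room for smaller differences. miR-151a-5p was at 0.12 (SE 0.21, adjusted p = 0.792), with an interval of -0.38 to 0.62. The median over the 329 rows was -0.19, and it moved to -0.06 when the libraries were scaled by the trimmed mean of M values (TMM). Relative to the first median, miR-28-5p was at 0.03, miR-708-5p at 0.13, miR-708-3p at 0.11 and miR-151a-5p at 0.31.

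Without Wt replicate 2 the log2 fold change of miR-151a-5p turned from 0.12 to -0.08 (SE 0.13, adjusted p = 0.746), and that of miR-708-3p went from -0.08 to -0.33 (SE 0.22, adjusted p = 0.449). miR-708-5p was then at -0.20 (SE 0.29) and miR-28-5p at -0.08 (SE 0.20). The direction for the miR-708 arms was not fixed either, since under TMM scaling miR-708-5p was at 0.07 and miR-708-3p at 0.05.

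**Figure D4:**
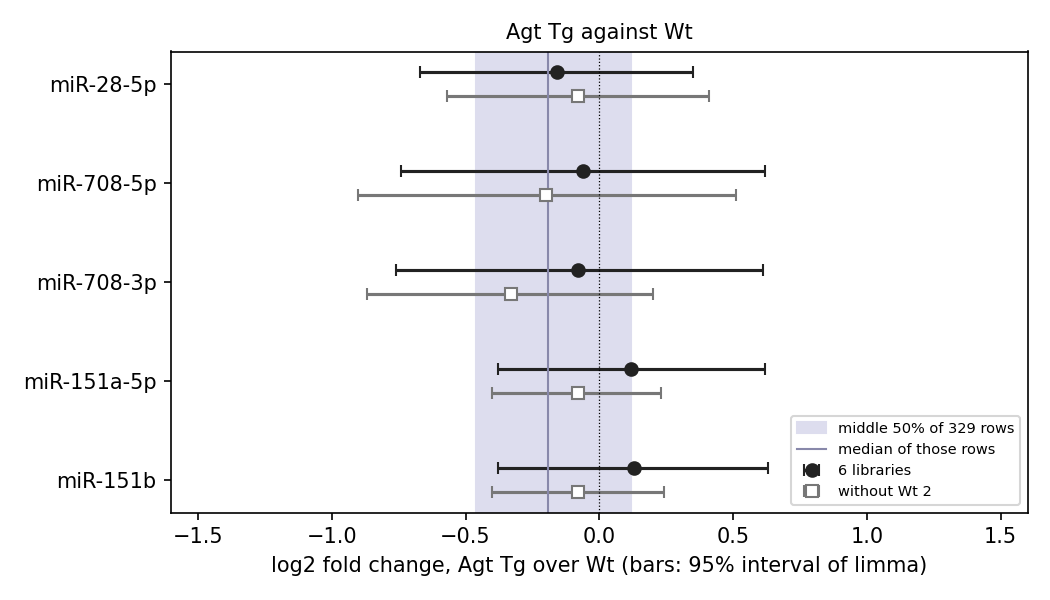
Log2 fold change of the members, Agt Tg over Wt, with 95% limma intervals, from 6 libraries (filled circles) and without Wt replicate 2 (open squares). The band from -0.46 to 0.12 holds the middle of the 329 rows and the line marks their median, -0.19. All intervals include 0.

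Across the 6 libraries the same-seed arms did not move together. Pearson's r of miR-28-5p and miR-708-5p was -0.122 (exact permutation p = 0.836), with Spearman's rho -0.0857 (p = 0.919, exact), and without the 2 libraries farthest from the median of miR-28-5p r was 0.777. The arms of miR-708, which come from the same hairpin, had r = 0.84 (exact permutation p = 0.05, adjusted p = 0.15) and rho = 0.771 (exact p = 0.103), with r = 0.528 without the 2 farthest libraries. miR-151a-5p and miR-708-3p had r = 0.79 (exact permutation p = 0.00833, adjusted p = 0.05) and rho = 0.943 (exact p = 0.0167, adjusted p = 0.1). That r was 0.715 without the 2 farthest libraries and 0.866 without Wt replicate 2. These relations were chosen after the values were seen, and adjusted p-values are over all 6 pairs of the 4 rows other than miR-151b, which would repeat those of miR-151a-5p. With miR-151b included, over 10 pairs, the adjusted p of that r was 0.0278. The libraries share the scale of RPM, which ties the rows of a library to each other.

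The rows most like each member were taken by Pearson's r over the 6 libraries, from 324 rows outside the group. For miR-28-5p they were miR-30e-5p (r = 0.984), miR-29a-5p (r = 0.982) and miR-19b-3p (r = 0.979), each in the same order of libraries as miR-28-5p. For miR-708-5p they were miR-103a-3p (r = 0.973), an adipocyte miRNA, miR-22-5p (r = 0.951) and miR-193a-3p (r = 0.911). For miR-708-3p they were miR-378a-3p (r = 0.887), which is made from an intron of Ppargc1b, miR-30c-5p (r = 0.883) and miR-186-5p (r = 0.875). For miR-151a-5p they were miR-668 (r = 0.948), miR-148a-5p (r = 0.932) and the red blood cell miRNA miR-451a (r = 0.912). The likeness of miR-668 and miR-451a rested on Wt replicate 2, without which r was 0.219 and 0.138, while that of miR-148a-5p was 0.779. With 324 rows searched over 6 libraries, these values are descriptions.

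miR-708-5p belongs to a list of 20 miRNAs linked to ER stress and the unfolded protein response, of which 16 were tested and miR-346, miR-211-5p, miR-96-5p and miR-455-3p were at the floor in all libraries. None of the 16 was at the threshold in limma, and 2 of them had a positive log2 fold change, with a median of -0.33, beside 107 of 329 with a positive one and a median of -0.19 over all rows tested. Without Wt replicate 2 these medians were -0.22 and -0.18. miR-125b-5p was the most abundant of them, with a log2 fold change of 0.13 (SE 0.21). The lowest was miR-222-3p at -0.98 (SE 0.69, adjusted p = 0.587), which was at 1170.7, 551.2 and 667.8 RPM in Wt and 1216.9, 221.7 and 208.7 in Agt Tg libraries. Agt Tg replicate 1 was thus above every Wt library, and the groups overlapped. miR-214-3p, which is made with miR-199a, was at -0.73 (SE 0.30, adjusted p = 0.522). miR-191-5p, the reference miRNA of the study's RT-qPCR, had a log2 fold change of 0.01 (SE 0.24). Without Wt replicate 2, which had its lowest value, 9785.7 RPM, the log2 fold change of miR-191-5p was -0.22 (SE 0.18).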

How the data were processed

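Small RNA libraries of epididymal WAT from 3 Wt and 3 Agt Tg mice were analysed, with genotype and replicate from the sample titles. The authors checked reads with FastQC, mapped them to the mouse genome with Qseq and extracted miRNA profiles with the Gunaratne Next Generation Pipeline. Neither a miRBase release nor a mismatch limit is stated in the methods used here. As deposited, each value is the log2 of a read number scaled to a total of 10000000 reads, and anything below 10 was set to 10. The library totals were inferred from the table itself at that scale. Each is the smallest total found at which every value above the floor is a whole read within 0.02, as 1924 of 1924 values were. The scale is an inference too, and whole reads do not fix it apart from the totals. No column of values was left without a sample.

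Rows above the floor in at least 3 libraries, 329 in all, were tested with limma 3.58.1 in R 4.3.3, on the deposited log2 values, with genotype as the term and a trend in the variance. A row was called at an unadjusted p no higher than 0.05 with a log2 fold change of 1 or more in either direction, or at a Benjamini-Hochberg adjusted p under 0.05 over the whole table. The test was tried on simulated data. Exact permutation tests were run in R for the arm ratios and in scipy 1.17.1 for the relations. TMM factors trimmed 30% of the log ratios and 5% of the levels. Named miRNAs were every member arm, miR-191-5p, the 3 rows most like each member, the neighbours in level and the members of fixed lists. miR-133a was added after seeing the data. The members and lists were chosen with earlier results of these data known. Besides the lists in the results, endothelial, smooth muscle and stroma, striated muscle and liver markers were fixed. Of these, 2 of 2, 3 of 3, 1 of 2 listed and 1 of 1 rows were tested, with 0 at the threshold and median log2 fold changes of 0.22, -0.38, -0.32 and 0.35. Only 2 of the 5 striated muscle names matched a row. The value of that list is miR-499a-5p alone, at 1.0 to 1.7 RPM, and leaves out the more abundant miR-133a. The epididymal and epithelial list had 1 of 10 at the threshold, miR-205-5p at -2.17 (SE 0.65), and a median of -2.12, and without Wt replicate 2 again 1 of 10, miR-205-5p at -1.48 (SE 0.45), and -0.06. The adipocyte list had 0 of 5 and a median of 0.22, and without that library 1 of 5, miR-196a-5p, and -0.12. The leukocyte and erythroid list had 0 of 8 and a median of -0.36, and without it 0 of 8 and -0.52. The other 4 medians were then 0.16, -0.02, -0.50 and 0.29. Medians without Wt replicate 2 were chosen after seeing the data. No 2 libraries agreed within sampling noise, with a chi-square of at least 195 per degree of freedom over 15 pairs. Expression arrays, RT-qPCR and miR-690 were not analysed here.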

Additional observations from a re-analysis of the deposited data

How the results depend on the processing

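No alternative brought a member to the threshold. Over 13 alternatives each, the log2 fold change ran from -0.27 to -0.03 for miR-28-5p, which kept its sign, from -0.08 to 0.25 for miR-151a-5p and miR-151b (to 0.23 with a library left out), from -0.22 to 0.18 for miR-708-5p and from -0.33 to 0.14 for miR-708-3p. The sign turned for miR-151a-5p and miR-151b without Wt replicate 2 (-0.08 for both). For miR-708-5p it turned with voom (0.06), with TMM scaling (0.07), without Wt replicate 1 (0.10) and without Agt Tg replicate 1 (0.18), and for miR-708-3p under the same settings, at 0.05, 0.05, 0.14 and 0.06. TMM scaling without voom was chosen after seeing the data. The cause of these turns was not tested.

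The count of 16 rows at the threshold went to 30 without a fold threshold and to 3 when a mean of 10 RPM was required, where 209 rows were tested. Leaving out each library gave 12 to 35, with 35 without Agt Tg replicate 1 and 23 without Wt replicate 2. The split of 9 higher and 7 lower became 10 and 4 with voom, 10 and 5 with TMM scaling and 9 and 4 without Agt Tg replicate 3, and leaned the other way at 8 and 9 with the replicate block, 1 and 2 with the filter at 10 RPM, 9 and 13 without Wt replicate 3, 10 and 25 without Agt Tg replicate 1 and 6 and 7 without Agt Tg replicate 2. It was even, at 6 and 6, without Wt replicate 1 and, at 15 and 15, without a fold threshold, and more were higher than lower under the other settings. No alternative gave a row at an adjusted p under 0.05. For the replicate block the count was 17, with 0 at an adjusted p under 0.05. Libraries of the same number did not vary together throughout (r = 0.219, -0.184 and -0.209). Those numbered 1 were each other's best match, while those numbered 2 and 3 matched best across numbers. The numbers are therefore not taken as pairs.

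The miR-708 arm difference of 0.02 lay between -0.10 and 0.14 when each library was left out, and was 0.02 with the replicate block and with 1 read added to each arm. Reads limit the members little, since each described value rests on at least 718 reads, but 3 libraries per genotype give wide intervals.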
